A study of Mus musculus with 8 samples.

Results

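The genes described here are 45 components and feedback regulators of the NF-κB pathway, taken by name from what is known of the pathway and matched by symbol to the 39089 genes of the deposited tables. All 45 were listed, 43 passed the filter on low counts, and *Birc3* and *Tlr2* did not. RNA-seq was performed on epithelial cells of subcutaneous tumors grown from Myc-CaP, a line from the *Myc*-driven prostate cancer of a mouse, in male FVB mice aged 6 weeks at inoculation. The cells carried either the empty control vector (genotype Myc-CaP EV, called WT here) or a guide RNA against *Arid1a*, whose product belongs to the chromatin remodeler SWI/SNF (Myc-CaP Arid1a KO, called *Arid1a* KO here). From day 16, mice received JSH-23, a compound that blocks entry of the NF-κB subunit p65 into the nucleus, or vehicle every day for 2 weeks. JSH-23 was dissolved in DMSO and diluted in corn oil, and controls received corn oil, which the labels describe without DMSO. Both lines were made with lentiviral vectors and drug selection, the sources do not describe a single clone, and which tumors gave which sample is not stated in them. EpCAM+ CD45- cells were sorted, and each of the 4 groups (WT or *Arid1a* KO, with vehicle or JSH-23) had 2 samples.

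Total counts were between 16401581 and 21972231 per sample, so that 3 counts in a library corresponded to between 0.144 and 0.182 CPM (counts scaled to the TMM library size), and this limit covers counting error only. The 2 samples of a group differed little, at a biological coefficient of variation of 1.61% in common over all genes, and p-values measure only the spread between such pairs, which may be technical. *Arid1a* itself was measured at 155.7 and 161.5 CPM in vehicle-treated WT tumors, 144.4 and 155.3 CPM in JSH-23-treated WT tumors, 102.9 and 105.9 CPM in vehicle-treated *Arid1a* KO tumors, and 93.8 and 95.9 CPM in JSH-23-treated *Arid1a* KO tumors. Its log2 fold change in *Arid1a* KO against WT was -0.60 with vehicle and -0.66 with JSH-23, and the transcript, though lower in every *Arid1a* KO sample, was still expressed. The marker used for the sort, *Epcam*, was nearly absent, with between 0 and 4 counts per sample, and *Cdh1*, *Krt18* and *Cldn7* had 19 counts or fewer in every sample. The epithelial keratin *Krt8* was expressed, with at least 540 counts, and 5 of 9 epithelial markers reached 1 CPM in each sample. *Ptprc*, which encodes CD45, had 10 counts or fewer. The macrophage marker *Adgre1* had 17 and 19 counts in vehicle-treated WT tumors, 17 and 1 in JSH-23-treated WT tumors, and 2 or fewer in each *Arid1a* KO sample, and *Itgam* and *Csf1r* also set both WT vehicle samples and replicate 1 of WT with JSH-23 apart. The summed level of the 22 leukocyte markers was 21.3 to 22.9 CPM in vehicle-treated WT tumors, 10.7 to 21.4 CPM in JSH-23-treated WT tumors, 20.4 to 22.8 CPM in vehicle-treated *Arid1a* KO tumors and 10.3 to 13.3 CPM in JSH-23-treated *Arid1a* KO tumors. The part of such cells in the results was not tested. In sorted bulk samples, a change in the share of a cell type and a change in RNA per cell cannot be told apart.

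NF-κB factors are dimers of the Rel proteins (RELA or p65, RELB, c-REL, p50 and p52), which IκB proteins hold in the cytoplasm. Receptors such as those for TNF and IL-1 and the Toll-like receptors act through TRAF, RIPK1 and MyD88 adaptors and ubiquitin chains to activate TAK1 and the IKK complex, which marks IκB for degradation and frees the dimers to enter the nucleus. Several inhibitors, including IκBα and the deubiquitinase A20, are themselves NF-κB target genes and so form negative feedback loops, and in prostate cancer NF-κB is known as a source of inflammatory cytokines and chemokines.

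Per base of the gene length listed, the members differed widely in level. *Nfkbia*, which encodes IκBα, had the highest mean TPM (counts scaled to gene length and library, as deposited) over the 4 groups, at 716 TPM, followed by *Tnip1* at 122 TPM, the TNF receptor genes *Tnfrsf1a* at 112 TPM and *Tnfrsf1b* at 94.4 TPM, and *Rbck1* at 93.6 TPM. Among the Rel protein transcripts, *Rela* had the highest TPM, at 62.5 TPM. *Nfkb2* followed at 34.9 TPM, *Nfkb1* at 34.2 TPM, *Relb* at 12.2 TPM and *Rel* at 10.8 TPM. By TPM, *Rela* ranked first of these in every group. Its group mean ranged from 40.3 TPM in JSH-23-treated *Arid1a* KO tumors to 87.9 TPM in vehicle-treated *Arid1a* KO tumors. This rank rests on the gene lengths listed, 2868 bases for *Rela* and 7345 for *Nfkb2*. In CPM, which is not divided by length, *Nfkb2* was above *Rela* in every sample (means 110.8 and 81.1 CPM in vehicle-treated WT tumors). *Tnfaip3*, which encodes A20, had 71.9 TPM. The lowest members were *Traf1* at 0.574 TPM, *Tlr2* at 0.187 TPM and *Birc3* at 0.0509 TPM.

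The members were examined for the κB decamer, the general recognition sequence of NF-κB dimers, in the 250 bases before each RefSeq transcript start on GRCm38.p6. Of the 45 members, 37 had such a window, and 13 of these (35.1%) held at least 1 match on either strand, against 8.23% of the 26994 genes with a window. A match is a description of the letters and not evidence of binding. The stretches below, in the direction of transcription and with the matches in capitals (a pair of overlapping ones in *Rel*), are those of the members with a match that were called in a comparison below, and of *Tnfaip3*, a feedback gene examined in the study.
*Nfkbia*, chr12:55492648-55492696, minus strand: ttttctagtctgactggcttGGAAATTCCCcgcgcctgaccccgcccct
*Nfkbie*, chr17:45555574-45555623, plus strand: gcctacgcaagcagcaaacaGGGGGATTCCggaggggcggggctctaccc
*Rel*, chr11:23771031-23771081, minus strand: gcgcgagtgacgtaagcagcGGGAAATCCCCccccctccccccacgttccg
*Map3k7*, chr4:31963995-31964044, plus strand: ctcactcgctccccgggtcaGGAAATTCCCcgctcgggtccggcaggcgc
*Tlr3*, chr8:45410562-45410611, minus strand: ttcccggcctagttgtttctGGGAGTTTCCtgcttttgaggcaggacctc
*Il1r1*, chr1:40266336-40266383, plus strand: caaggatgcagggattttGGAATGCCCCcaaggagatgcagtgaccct
*Tnfaip3*, chr10:19015411-19015555, minus strand: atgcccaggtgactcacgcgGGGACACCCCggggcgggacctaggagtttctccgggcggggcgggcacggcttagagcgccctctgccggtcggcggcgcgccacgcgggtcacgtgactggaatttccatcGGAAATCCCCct
This *Tnfaip3* window held 2 matches, and the one nearer to the start ended 3 bases before it. The window of another *Tnfaip3* start, chr10:19011964-19012213, held 0 matches, as did that of another *Il1r1* start, chr1:40224830-40225079.

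*Arid1a* KO was first set against WT with vehicle, the comparison that asks what loss of *Arid1a* does without the inhibitor, and few members reached the threshold. A gene was called where the p of edgeR's quasi-likelihood test, adjusted by Benjamini-Hochberg over the 13921 genes tested, was under 0.05 and the change reached 1.5-fold. Of the 43 members, 4 were called (*Tlr3*, *Chuk* and *Nfkbie* higher, *Irak4* lower), beside 12.6% of all genes called, 7.48% higher and 5.16% lower. By the adjusted p alone, 11 members were higher, beside 25.0% of all genes, and 12 lower, beside 25.5%, so the share of members that differed was close to that of all genes. The median log2 fold change of the members was -0.01, beside 0.003 over all genes. Leukocyte markers differed in the same comparison, and their part in the result was not tested. Of the 6 that passed the filter, 5 were called lower (*Itgam*, *Lyz2*, *Csf1r*, *Adgre1* and *Fcer1g*) and *Cd68* was called higher, while the other 16 of the 22 were below the filter. No gene of the A20 arm, CYLD and LUBAC was called by edgeR or by DESeq2. By edgeR's adjusted p alone 1 of these 7 was higher and 2 lower, beside the same 25.0% and 25.5% of all genes. The counts at an unadjusted p under 0.05 were the same. Without replicate 1 of WT with vehicle the calls of *Chuk* and *Nfkbie* were lost, leaving 2 called members. Without replicate 1 of *Arid1a* KO with vehicle that of *Nfkbie* was lost, and without replicate 2 of either vehicle group that of *Irak4*.

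With JSH-23, more members changed in *Arid1a* KO tumors. A total of 15 of 43 were called, beside 26.0% of all genes, with 4 higher (*Nfkbia*, *Tnfrsf1a*, *Map3k14* and *Tab1*, beside 9.10% of all genes higher) and 11 lower (*Rela*, *Relb*, *Nfkb1*, *Nfkbiz*, *Ikbke*, *Map3k7*, *Traf1*, *Sharpin*, *Myd88*, *Tlr3* and *Tlr4*, beside 16.9% lower). By the adjusted p alone 12 were higher, beside 33.4% of all genes, and 23 lower, beside 34.4%, and the median of the members was -0.18, beside -0.02 over all genes. TMM scaling bears on these values. Without it the median of all genes moved to -0.13, and on log2(TPM + 1) to -0.205. The share of higher genes among all called genes went from 35% to 22.5% and 12.8%, and the called members went to 2 higher and 14 lower, and to 1 higher and 16 lower. *Nfkbia* was called higher and *Rela*, *Relb*, *Nfkb1* and *Nfkbiz* lower under each of these scalings, while *Map3k14* and *Tab1* were not called under either and *Tnfrsf1a* was not called on the TPM scale. Summed leukocyte markers were lower with JSH-23 in this comparison (values above), although only 2 of the 22 reached 1 CPM in each *Arid1a* KO sample. The 10 fibroblast markers summed to 68.9 to 70.5 CPM with vehicle and 43.7 to 50.15 CPM with JSH-23. Of 6 leukocyte markers tested 1 was called, and of 7 fibroblast markers 1, both lower, beside 26.0% of all genes called. The part of these markers in the result was not tested.

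In WT tumors, JSH-23 gave 4 called members, beside 15.8% of all genes, with *Rel* higher (beside 5.55% of all genes higher) and *Nfkbiz*, *Ikbkg* and *Tlr3* lower (beside 10.2% lower). By the adjusted p alone 12 members were higher, beside 28.6% of all genes, and 20 lower, beside 27.2%, and the median was -0.10, beside -0.006 over all genes. The effects in the 2 genotypes, which share no samples, had the same direction in 24 of the members that passed the adjusted p in both (16 lower and 8 higher), and opposite directions in 4. The same direction thus held for 85.7% of these 28 members, beside 89.6% of the 6223 genes that passed in both. *Chuk*, *Tab2* and *Traf3* were lower in *Arid1a* KO and higher in WT tumors, and *Tnip2* was the reverse, although its direction in *Arid1a* KO tumors turned on the TPM scale. *Nfkbia* missed the 1.5-fold change by a small margin and was called without a filter and when replicate 2 of WT with vehicle, replicate 1 of WT with JSH-23 or either replicate of *Arid1a* KO with JSH-23 was left out. Without replicate 2 of WT with JSH-23 the count rose to 6 as *Irak4* and *Tradd* were added. The median absolute log2 fold change of the members was 0.362 in *Arid1a* KO and 0.315 in WT tumors, beside 0.36 and 0.268 over all genes.

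With JSH-23 in both genotypes, 2 members were called in *Arid1a* KO against WT (*Ikbke* and *Il1r1*, both lower), beside 8.71% of all genes called, 3.74% higher and 4.97% lower. By the adjusted p alone 6 were higher, beside 23.2% of all genes, and 21 lower, beside 23.8%, and the median was -0.11, beside -0.01 over all genes. Without replicate 1 of *Arid1a* KO with JSH-23 neither was called. Without replicate 2 of WT with JSH-23, the sample with few macrophage counts, *Il1r1* was not. Without replicate 1 of WT with JSH-23 *Irak4* and *Tlr4* were added, for 4 called members. The summed fibroblast markers were 67.2 to 69.4 CPM in WT and 43.7 to 50.15 CPM in *Arid1a* KO samples here, with 4 of 7 tested lower by the adjusted p, and of 6 leukocyte markers tested 4 were called lower and 1 higher. Their part in the result was not tested. Among all genes called, the share of higher genes went from 42.9% to 29.6% without scaling and 15.9% on log2(TPM + 1). The test of the difference itself, the effect of JSH-23 in *Arid1a* KO minus that in WT tumors, called 3 members, all with a negative difference (*Nfkbie*, *Ikbke* and *Chuk*), beside 9.07% of all genes called, 5.76% with a negative and 3.30% with a positive one. By the adjusted p alone 8 members had a positive difference, beside 20.5% of all genes, and 19 a negative one, beside 17.9%. Without replicate 1 of WT with vehicle none of the 3 was called and *Map3k7* was. Without replicate 1 of *Arid1a* KO with vehicle only *Ikbke* was called, and without replicate 1 of *Arid1a* KO with JSH-23 only *Chuk* was. *Nfkbie* was lost and *Map3k7*, *Rel* and *Tlr3* were added without replicate 1 of WT with JSH-23. Without scaling 7 members were called and on log2(TPM + 1) 9, all lower, and the share of higher genes among all called genes went from 36.5% to 18.8% and 10.6%.

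**Figure D1:**
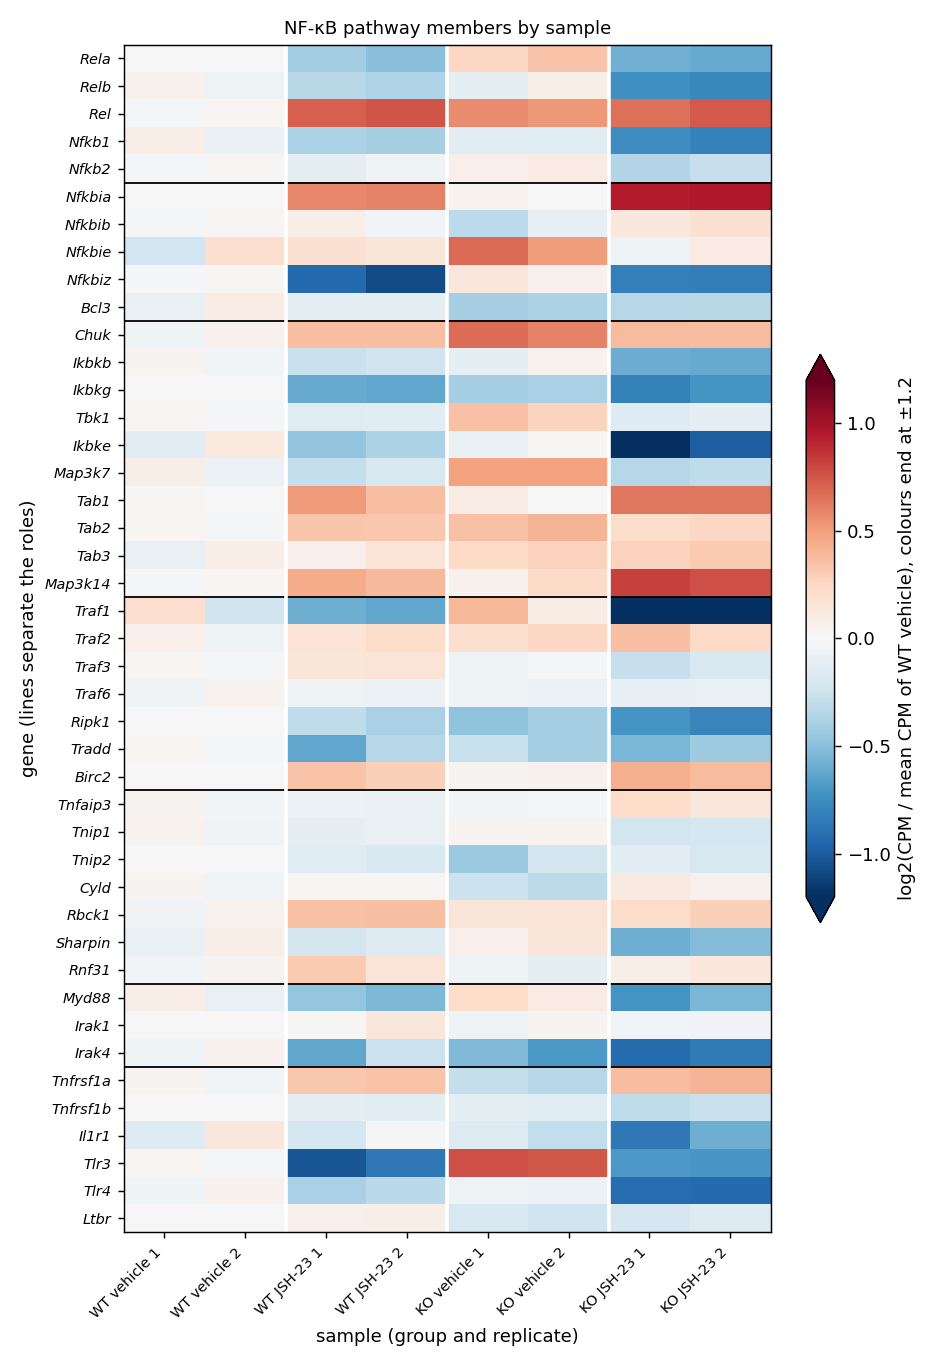
Each row is 1 of the 43 members that passed the filter, in the order of their roles (lines between roles), and each column is 1 sample. Colours give log2 of the CPM over the mean CPM of vehicle-treated WT tumors, ending at ±1.2. *Nfkbia* is the reddest row in both JSH-23-treated *Arid1a* KO samples, *Rela*, *Relb* and *Nfkb1* turn blue with JSH-23 in both genotypes, and the *Tnfaip3* row stays pale across all 8 samples.

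Among the genes of the 5 Rel proteins, JSH-23 lowered *Rela*, *Relb* and *Nfkb1* in *Arid1a* KO tumors and raised *Rel* in WT tumors. *Rela*, which encodes p65, the subunit with the main activating domain, was measured at 81.1 and 81.1 CPM in vehicle-treated WT tumors, 60.6 and 57.15 CPM in JSH-23-treated WT tumors, 96.45 and 102.5 CPM in vehicle-treated *Arid1a* KO tumors, and 54.4 and 53.3 CPM in JSH-23-treated *Arid1a* KO tumors. No group overlapped another, the *Arid1a* KO samples being the highest with vehicle and the lowest with JSH-23. *Rela* fell 1.85-fold with JSH-23 in *Arid1a* KO tumors (log2 fold change -0.89, SE 0.046, adjusted p = 1.52e-27), and its log2 fold change was -0.46 (SE 0.049) with JSH-23 in WT tumors and 0.30 (SE 0.044) in *Arid1a* KO against WT with vehicle, both under 1.5-fold. The effect of JSH-23 in *Arid1a* KO minus that in WT tumors was -0.43 on the log2 scale (adjusted p = 2.69e-07).

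*Nfkb1*, which encodes p105 and its product p50, was measured at 82.8 and 73.9 CPM in vehicle-treated WT tumors, 60.2 and 59.5 CPM in JSH-23-treated WT tumors, 71.4 and 70.9 CPM in vehicle-treated *Arid1a* KO tumors, and 46.9 and 44.7 CPM in JSH-23-treated *Arid1a* KO tumors. Both JSH-23 groups lay below both vehicle groups, and the JSH-23-treated *Arid1a* KO samples were the lowest. *Nfkb1* fell 1.56-fold with JSH-23 in *Arid1a* KO tumors (log2 fold change -0.64, SE 0.052), and the log2 fold change was -0.39 in WT tumors. *Relb*, the partner of p52 in the alternative pathway, was measured at 18.2 and 16.8 CPM in vehicle-treated WT tumors, 13.9 and 13.5 CPM in JSH-23-treated WT tumors, 16.2 and 18.4 CPM in vehicle-treated *Arid1a* KO tumors, and 10.54 and 10.22 CPM in JSH-23-treated *Arid1a* KO tumors. The vehicle groups overlapped each other and lay above both JSH-23 groups. *Relb* fell 1.67-fold with JSH-23 in *Arid1a* KO tumors (log2 fold change -0.74, SE 0.10, adjusted p = 3.00e-09).

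*Rel*, which encodes c-REL, went the other way. It was measured at 22.98 and 23.8 CPM in vehicle-treated WT tumors, 38.3 and 39.5 CPM in JSH-23-treated WT tumors, 34.6 and 33.6 CPM in vehicle-treated *Arid1a* KO tumors, and 37.0 and 39.0 CPM in JSH-23-treated *Arid1a* KO tumors. The vehicle-treated WT samples stood alone as the lowest, and the other 6 samples lay within 33.6 to 39.5 CPM. *Rel* rose 1.66-fold with JSH-23 in WT tumors (log2 fold change 0.73, SE 0.074, adjusted p = 1.06e-13). In *Arid1a* KO tumors its log2 fold change with JSH-23 was 0.16 (SE 0.066), which turned to -0.07 on log2(TPM + 1), and the difference between the genotypes was -0.58 (adjusted p = 1.80e-06). *Nfkb2*, which encodes p100 and its product p52, was the steadiest of the 5, at 109.8 and 111.8 CPM in vehicle-treated WT tumors, 102 and 107.2 CPM in JSH-23-treated WT tumors, 115.5 and 118.8 CPM in vehicle-treated *Arid1a* KO tumors, and 86.7 and 91.4 CPM in JSH-23-treated *Arid1a* KO tumors. Lowest were the JSH-23-treated *Arid1a* KO samples, with a log2 fold change of -0.39 (SE 0.039), under 1.5-fold. All 5 Rel proteins had a more negative effect of JSH-23 in *Arid1a* KO than in WT tumors, between -0.58 and -0.25, at an adjusted p under 0.05, beside 17.9% of all genes. The difference of *Relb* did not pass in 6 alternatives, namely in DESeq2, with a biological coefficient of variation of 0.1, and without replicate 2 of either vehicle group, replicate 1 of WT with JSH-23 or replicate 2 of *Arid1a* KO with JSH-23. That of *Nfkb1* did not pass in 3 (DESeq2, the same coefficient, and without replicate 2 of WT with vehicle, where it was -0.17). Those of the other 3 did not pass with that coefficient.

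**Figure D2:**
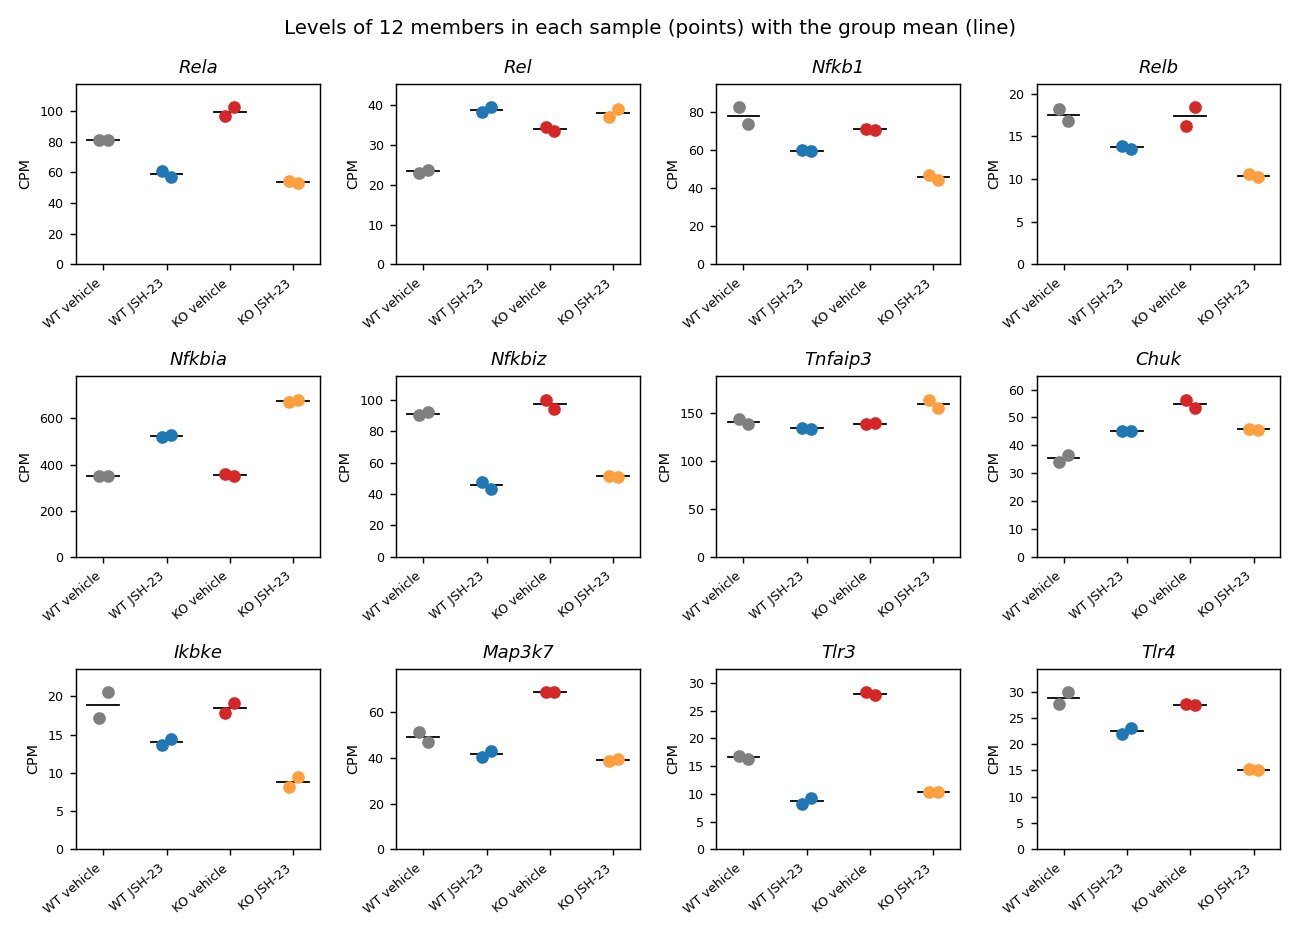
Each panel gives the CPM of 1 of 12 members in each of the 8 samples (points, y axis from 0), with a line at the mean of the 2 samples of the group. The 2 points of a group lie close together, *Nfkbia* is highest in JSH-23-treated *Arid1a* KO tumors at 673 and 681 CPM, *Rel* is lowest in vehicle-treated WT tumors, and *Tnfaip3* lies between 133.7 and 164.2 CPM throughout.

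The IκB proteins divided by gene. *Nfkbia* was measured at 349 and 351 CPM in vehicle-treated WT tumors, 521 and 527 CPM in JSH-23-treated WT tumors, 359.8 and 352 CPM in vehicle-treated *Arid1a* KO tumors, and 673 and 681 CPM in JSH-23-treated *Arid1a* KO tumors. Every JSH-23 sample was above every vehicle sample, and the JSH-23-treated *Arid1a* KO samples were the highest. *Nfkbia* rose 1.90-fold with JSH-23 in *Arid1a* KO tumors (log2 fold change 0.93, SE 0.020, adjusted p = 1.37e-49). In WT tumors its log2 fold change was 0.583 (SE 0.021, adjusted p = 9.58e-36), just under the 1.5-fold threshold of 0.585, and with vehicle it did not differ beyond the threshold between genotypes (log2 fold change 0.02, 95% confidence interval -0.02 to 0.07). The difference between the effects of JSH-23 in the 2 genotypes was 0.35 (adjusted p = 2.49e-16). Over the alternatives that keep all samples, this difference lay between 0.15 and 0.35 and did not pass the adjusted p in 1. *Nfkbiz*, which encodes the nuclear IκBζ, a coactivator of a subset of NF-κB targets, was measured at 89.96 and 91.9 CPM in vehicle-treated WT tumors, 47.5 and 43.35 CPM in JSH-23-treated WT tumors, 99.99 and 94.3 CPM in vehicle-treated *Arid1a* KO tumors, and 51.5 and 51.0 CPM in JSH-23-treated *Arid1a* KO tumors. The JSH-23 samples lay far below the vehicle samples in both genotypes. *Nfkbiz* fell 1.998-fold in WT tumors (log2 fold change -0.9989, SE 0.051) and 1.89-fold in *Arid1a* KO tumors (log2 fold change -0.92, SE 0.047), and these effects differed by 0.08 (adjusted p = 0.41, 95% confidence interval -0.06 to 0.22). *Nfkbie*, which encodes IκBε, was called higher in vehicle-treated *Arid1a* KO tumors (log2 fold change 0.588, SE 0.18), just above the 1.5-fold threshold of 0.585. It was not called there by DESeq2, without a filter, or on log2(TPM + 1). The log2 fold change of *Bcl3*, a nuclear IκB partner of p50 and p52, was -0.39 in *Arid1a* KO against WT with vehicle, and that of *Nfkbib*, which encodes IκBβ, was 0.36 with JSH-23 in *Arid1a* KO tumors (0.12 on log2(TPM + 1), limma adjusted p = 0.186), both under 1.5-fold.

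Among the kinases, *Chuk*, which encodes IKKα, was measured at 33.96 and 36.6 CPM in vehicle-treated WT tumors, 45.2 and 45.2 CPM in JSH-23-treated WT tumors, 56.35 and 53.3 CPM in vehicle-treated *Arid1a* KO tumors, and 45.8 and 45.7 CPM in JSH-23-treated *Arid1a* KO tumors. The vehicle-treated WT samples were the lowest and the vehicle-treated *Arid1a* KO samples the highest, with both JSH-23 groups between them. *Chuk* rose 1.55-fold in vehicle-treated *Arid1a* KO tumors (log2 fold change 0.63, SE 0.061, adjusted p = 2.30e-14), and its log2 fold change with JSH-23 was 0.36 in WT and -0.26 in *Arid1a* KO tumors. *Ikbkb*, which encodes IKKβ, the main IκB kinase of the classical pathway, was measured at 48.3 and 46.1 CPM in vehicle-treated WT tumors, 39.3 and 39.9 CPM in JSH-23-treated WT tumors, 43.75 and 48.6 CPM in vehicle-treated *Arid1a* KO tumors, and 31.2 and 31.1 CPM in JSH-23-treated *Arid1a* KO tumors. The vehicle groups overlapped, and all 4 JSH-23 samples were lower. The log2 fold change with JSH-23 was -0.57 (SE 0.064, adjusted p = 2.97e-12) in *Arid1a* KO and -0.25 (SE 0.064) in WT tumors, both under 1.5-fold. In the first the 1.5-fold change was reached without scaling, on the TPM scale, with at least 10 counts required per sample, and without replicate 1 of *Arid1a* KO with vehicle. *Ikbkg*, which encodes the regulatory subunit NEMO, fell with JSH-23 in WT tumors (log2 fold change -0.62, SE 0.032). Its log2 fold change was -0.36 with JSH-23 in *Arid1a* KO tumors and -0.39 in *Arid1a* KO against WT with vehicle, both under 1.5-fold.

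*Map3k7*, which encodes TAK1, was measured at 51.4 and 46.7 CPM in vehicle-treated WT tumors, 40.26 and 43.04 CPM in JSH-23-treated WT tumors, 68.6 and 68.5 CPM in vehicle-treated *Arid1a* KO tumors, and 38.75 and 39.6 CPM in JSH-23-treated *Arid1a* KO tumors. The vehicle-treated *Arid1a* KO samples stood above all others. *Map3k7* fell 1.75-fold with JSH-23 in *Arid1a* KO tumors (log2 fold change -0.81, SE 0.056, adjusted p = 5.29e-21), and the difference from the effect in WT tumors was -0.57 (adjusted p = 3.98e-08). *Ikbke*, which encodes IKKε, an IKK-related kinase of the interferon response, was measured at 17.2 and 20.5 CPM in vehicle-treated WT tumors, 13.6 and 14.5 CPM in JSH-23-treated WT tumors, 17.8 and 19.1 CPM in vehicle-treated *Arid1a* KO tumors, and 8.107 and 9.497 CPM in JSH-23-treated *Arid1a* KO tumors. The vehicle groups overlapped, and the JSH-23-treated *Arid1a* KO samples were the lowest. *Ikbke* fell 2.09-fold with JSH-23 in *Arid1a* KO tumors (log2 fold change -1.065, SE 0.11, adjusted p = 8.76e-14). With JSH-23 it was lower than in WT tumors when *Arid1a* was lost (log2 fold change -0.67, SE 0.12). *Map3k14*, which encodes NIK, the kinase of the alternative pathway, was measured at 24.3 and 25 CPM in vehicle-treated WT tumors, 33.6 and 32.4 CPM in JSH-23-treated WT tumors, 25.5 and 29.0 CPM in vehicle-treated *Arid1a* KO tumors, and 43.7 and 42.3 CPM in JSH-23-treated *Arid1a* KO tumors. All 4 JSH-23 samples were above all 4 vehicle samples. *Map3k14* rose 1.57-fold in *Arid1a* KO tumors (log2 fold change 0.65, SE 0.069), a call that was lost without replicate 1 of *Arid1a* KO with vehicle, and *Tab1*, which encodes a TAK1 binding protein, rose by 0.59 (SE 0.059), a call that was lost without replicate 2 of that group. *Tbk1*, an IKK-related kinase, had a log2 fold change of -0.44 with JSH-23 in *Arid1a* KO tumors. *Tab2*, a ubiquitin-binding partner of TAK1, had one of 0.38 in *Arid1a* KO against WT with vehicle, and its effect of JSH-23 differed between genotypes by -0.47 (adjusted p = 1.20e-11). *Tab3*, its close relative, had log2 fold changes between 0.04 and 0.26 in the 4 comparisons, of which that with JSH-23 in *Arid1a* KO tumors turned to -0.19 on log2(TPM + 1) and that in *Arid1a* KO against WT with JSH-23 to -0.007.

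**Figure D3:**
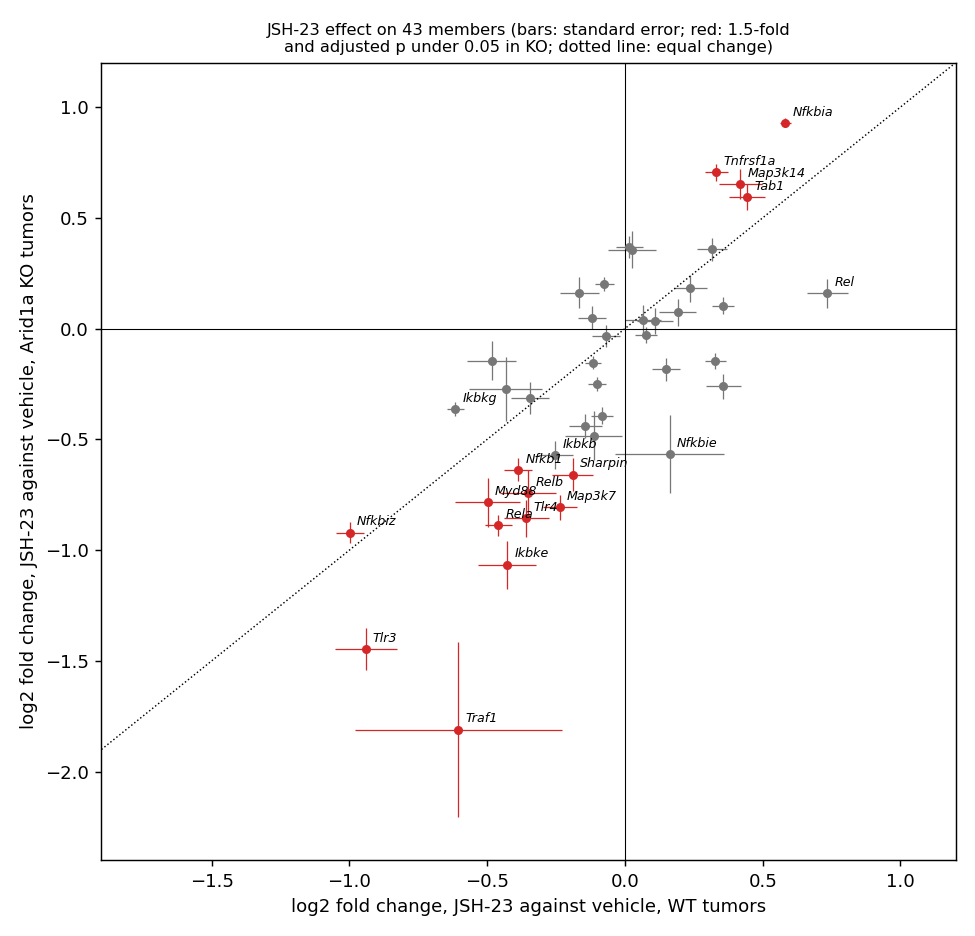
The log2 fold change with JSH-23 in WT tumors (x axis) is plotted against that in *Arid1a* KO tumors (y axis) for the 43 members, with bars for the standard error, red for the 15 members called in *Arid1a* KO tumors, and a dotted line where both changes are equal. *Nfkbia* lies at 0.58 and 0.93, *Rela* at -0.46 and -0.89, *Nfkbiz* close to the dotted line at -0.9989 and -0.92, and *Rel* at 0.73 and 0.16.

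Of 7 adaptors downstream of TNF receptors that were tested, 1 was called. This was with JSH-23 in *Arid1a* KO tumors, where 26.0% of all genes were called. *Traf1*, an adaptor that is itself induced by NF-κB, was low, at 1.84 and 1.35 CPM in vehicle-treated WT tumors, 1.06 and 1.03 CPM in JSH-23-treated WT tumors, 2.10 and 1.70 CPM in vehicle-treated *Arid1a* KO tumors, and 0.541 and 0.528 CPM in JSH-23-treated *Arid1a* KO tumors. These correspond to 31 and 23, 19 and 17, 38 and 35, and 10 and 11 counts, and the JSH-23-treated *Arid1a* KO samples were the lowest. *Traf1* fell 3.51-fold with JSH-23 in *Arid1a* KO tumors (log2 fold change -1.81, SE 0.40, adjusted p = 5.25e-05). Of the others, *Ripk1*, the kinase of the TNF receptor complex, was lower in all 4 comparisons at an adjusted p under 0.05, with log2 fold changes between -0.44 and -0.31. *Tradd*, which docks it to the receptor, had -0.33 in *Arid1a* KO against WT with vehicle and -0.48 with JSH-23 in WT tumors. *Birc2*, which encodes the ubiquitin ligase cIAP1, was higher with JSH-23 in both genotypes, by 0.36 in *Arid1a* KO and 0.31 in WT tumors, the first of which was 0.118 (adjusted p = 0.0404, limma) on log2(TPM + 1). *Traf3*, a brake on NIK, had a log2 fold change of -0.38 in *Arid1a* KO against WT with JSH-23, *Traf2* had log2 fold changes between 0.07 and 0.22, and *Traf6*, the ubiquitin ligase of the IL-1 and Toll-like receptor branch, between -0.07 and -0.02 in the 4 comparisons. *Birc3*, which encodes cIAP2, had 6 counts or fewer in every sample and could not be compared at this depth.

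Of the 7 genes of the A20 arm, CYLD and LUBAC, only the LUBAC gene *Sharpin* was called. This was with JSH-23 in *Arid1a* KO tumors, where 26.0% of all genes were called. *Tnfaip3* was measured at 144.2 and 138.6 CPM in vehicle-treated WT tumors, 134.9 and 133.7 CPM in JSH-23-treated WT tumors, 138.4 and 139.5 CPM in vehicle-treated *Arid1a* KO tumors, and 164.2 and 155.8 CPM in JSH-23-treated *Arid1a* KO tumors. The vehicle groups overlapped, and the JSH-23-treated *Arid1a* KO samples were the highest. In *Arid1a* KO against WT with vehicle the log2 fold change was -0.03 (95% confidence interval -0.09 to 0.04, adjusted p = 0.571), so no difference was found and a 1.5-fold change lay outside the interval. With JSH-23 the log2 fold change was 0.20 (SE 0.033) in *Arid1a* KO tumors, which turned to -0.03 on log2(TPM + 1), and -0.07 (SE 0.035) in WT tumors. The difference between these effects was 0.28 (adjusted p = 2.05e-06) and fell to 0.079 (adjusted p = 0.254, limma) on log2(TPM + 1). With a biological coefficient of variation of 0.1 its adjusted p was 0.502, so it did not pass on the TPM scale or at that spread.

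Of the A20 partners, *Tnip1* (ABIN1) had a log2 fold change of -0.25 with JSH-23 in *Arid1a* KO tumors, and *Tnip2* (ABIN2) one of -0.32 in *Arid1a* KO against WT with vehicle. *Cyld*, a deubiquitinase that like A20 restrains the pathway, was lower in *Arid1a* KO against WT with vehicle (log2 fold change -0.29, SE 0.051) and higher with JSH-23 in *Arid1a* KO tumors (0.37, SE 0.049), both under 1.5-fold, and the second was 0.12 (adjusted p = 0.0755, limma) on log2(TPM + 1). *Rnf31*, *Rbck1* and *Sharpin* encode HOIP, HOIL-1 and SHARPIN, the subunits of the linear ubiquitin assembly complex (LUBAC). *Sharpin* was measured at 32.2 and 35.9 CPM in vehicle-treated WT tumors, 29.2 and 30.6 CPM in JSH-23-treated WT tumors, 35.6 and 37.6 CPM in vehicle-treated *Arid1a* KO tumors, and 22.65 and 23.7 CPM in JSH-23-treated *Arid1a* KO tumors. Both JSH-23-treated *Arid1a* KO samples were below the other 6. *Sharpin* fell 1.58-fold with JSH-23 in *Arid1a* KO tumors (log2 fold change -0.66, SE 0.073, adjusted p = 2.12e-12). The catalytic subunit gene *Rnf31* did not share that direction, with log2 fold changes of 0.18 in *Arid1a* KO and 0.24 in WT tumors for the effect of JSH-23, the first of which turned to -0.06 on log2(TPM + 1), and *Rbck1* had 0.10 and 0.36, the first of which turned to -0.01 without scaling.

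In the branch of the IL-1 and Toll-like receptors, *Myd88*, *Tlr3* and *Tlr4* fell with JSH-23 in *Arid1a* KO tumors. *Myd88*, an adaptor of the IL-1 receptor and of most but not all Toll-like receptors, was measured at 14.5 and 12.9 CPM in vehicle-treated WT tumors, 9.94 and 9.42 CPM in JSH-23-treated WT tumors, 15.9 and 14.7 CPM in vehicle-treated *Arid1a* KO tumors, and 8.32 and 9.35 CPM in JSH-23-treated *Arid1a* KO tumors. All 4 JSH-23 samples were below all 4 vehicle samples. *Myd88* fell 1.72-fold in *Arid1a* KO tumors (log2 fold change -0.78, SE 0.11, adjusted p = 5.70e-09), with -0.50 (SE 0.12) in WT tumors. *Irak4*, the kinase that MyD88 recruits first, was lower in *Arid1a* KO against WT with vehicle (log2 fold change -0.61, SE 0.13), and *Irak1*, its partner kinase, had log2 fold changes between -0.11 and 0.08 in the 4 comparisons.

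*Tlr3*, the endosomal receptor of double-stranded RNA, was measured at 16.9 and 16.3 CPM in vehicle-treated WT tumors, 8.15 and 9.18 CPM in JSH-23-treated WT tumors, 28.3 and 27.8 CPM in vehicle-treated *Arid1a* KO tumors, and 10.3 and 10.3 CPM in JSH-23-treated *Arid1a* KO tumors. Vehicle-treated *Arid1a* KO samples were the highest, vehicle-treated WT samples came next, and both JSH-23 groups lay below them. *Tlr3* rose 1.69-fold in vehicle-treated *Arid1a* KO tumors (log2 fold change 0.76, SE 0.089, adjusted p = 3.13e-11), fell 2.72-fold with JSH-23 in *Arid1a* KO tumors (-1.45, SE 0.094) and fell 1.92-fold with JSH-23 in WT tumors (-0.94, SE 0.11). *Tlr4*, the receptor of lipopolysaccharide, was measured at 27.7 and 29.9 CPM in vehicle-treated WT tumors, 22 and 22.98 CPM in JSH-23-treated WT tumors, 27.6 and 27.4 CPM in vehicle-treated *Arid1a* KO tumors, and 15.3 and 15.1 CPM in JSH-23-treated *Arid1a* KO tumors. The vehicle groups lay close together, and the JSH-23-treated *Arid1a* KO samples were the lowest. *Tlr4* fell 1.81-fold with JSH-23 in *Arid1a* KO tumors (log2 fold change -0.86, SE 0.085), with -0.36 in WT tumors and a difference of -0.50 (adjusted p = 0.000401). *Tlr2*, below the filter, had 4 and 5 counts in vehicle-treated WT tumors, 2 and 1 in JSH-23-treated WT tumors, 13 and 10 in vehicle-treated *Arid1a* KO tumors, and 1 and 1 in JSH-23-treated *Arid1a* KO tumors. Per total count, its level in vehicle-treated *Arid1a* KO tumors was 2.27 times that in vehicle-treated WT tumors (95% exact binomial counting interval 1.01 to 5.58). Vehicle over JSH-23 was 12.6 (3.12 to 111) in *Arid1a* KO and 3.07 (0.765 to 17.6) in WT tumors. Without a filter *Tlr2* was called with JSH-23 in *Arid1a* KO tumors.

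The TNF receptor gene *Tnfrsf1a* was measured at 94.5 and 89.8 CPM in vehicle-treated WT tumors, 115 and 117.2 CPM in JSH-23-treated WT tumors, 75.7 and 72.65 CPM in vehicle-treated *Arid1a* KO tumors, and 119.3 and 122.2 CPM in JSH-23-treated *Arid1a* KO tumors. The vehicle-treated *Arid1a* KO samples were the lowest, and all JSH-23 samples were above all vehicle samples. *Tnfrsf1a* rose 1.63-fold with JSH-23 in *Arid1a* KO tumors (log2 fold change 0.70, SE 0.040, adjusted p = 1.22e-25), with 0.33 in WT tumors and a difference of 0.37 (adjusted p = 1.03e-07). Over the alternatives that keep all samples, this difference lay between 0.17 and 0.38 and did not pass the adjusted p in 1. *Tnfrsf1b*, the second TNF receptor, had log2 fold changes between -0.17 and -0.12 in the 4 comparisons. *Il1r1*, which encodes the signaling receptor of IL-1, was lower in *Arid1a* KO against WT with JSH-23 (log2 fold change -0.60, SE 0.11), and *Ltbr*, the lymphotoxin β receptor of the alternative pathway, had log2 fold changes of -0.22 and -0.24 in *Arid1a* KO against WT with vehicle and with JSH-23.

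**Figure D4:**
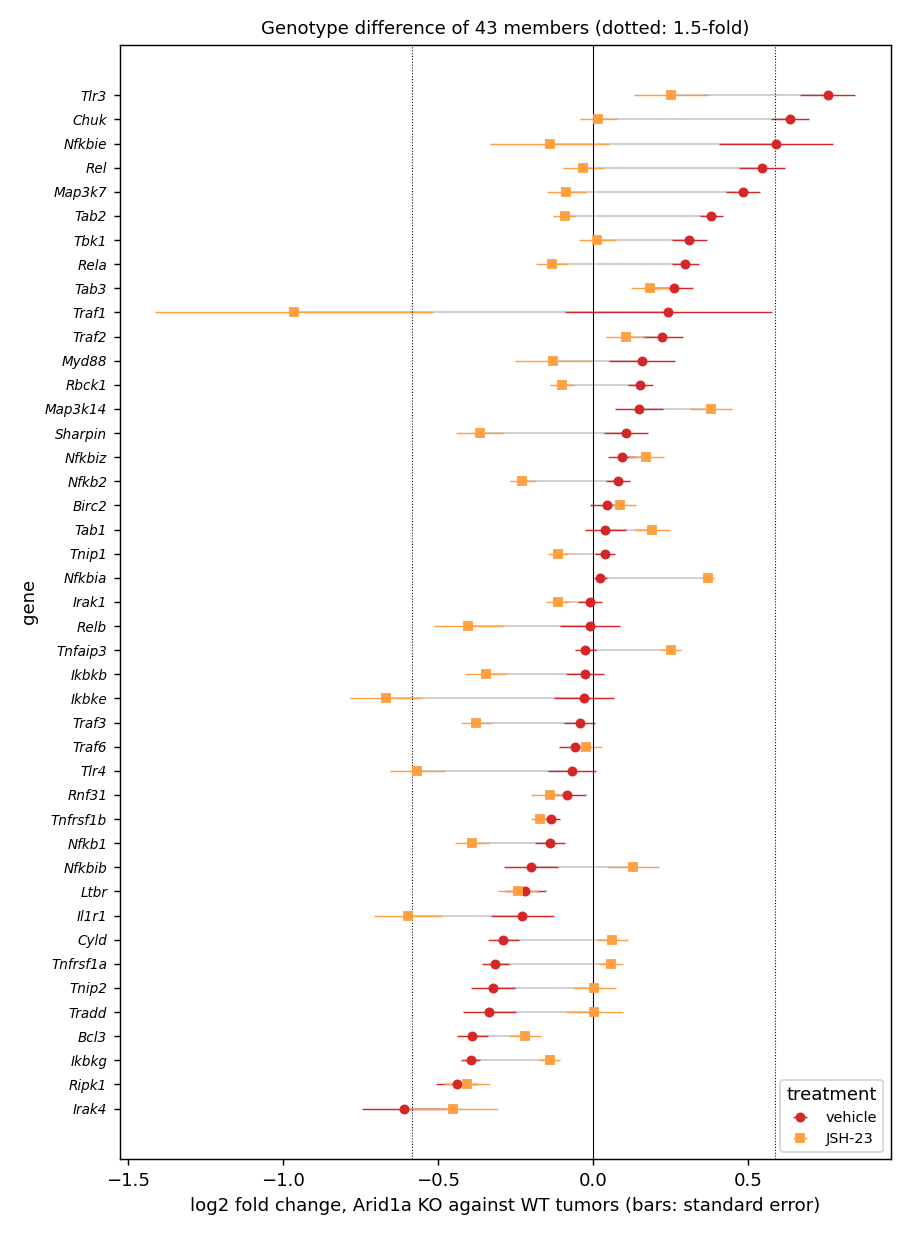
For each of the 43 members, the log2 fold change of *Arid1a* KO against WT tumors is drawn with vehicle (red circles) and with JSH-23 (orange squares), with bars for the standard error and dotted lines at 1.5-fold. *Tlr3*, *Chuk* and *Nfkbie* lie beyond the upper dotted line with vehicle and *Irak4* beyond the lower, and with JSH-23 *Nfkbia* lies at 0.37 and *Ikbke* at -0.67.

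Genes around the members were examined in lists of other pathway genes and of known NF-κB target genes. Of 29 target genes tested out of 34, 12 were higher and 1 lower in *Arid1a* KO against WT with vehicle, with a median log2 fold change of 0.52, beside 7.48% of all genes higher and 5.16% lower. The highest were the neutrophil chemoattractant genes *Cxcl2* (log2 fold change 2.31, SE 0.083) and *Cxcl1* (1.97, SE 0.052), the granulocyte colony-stimulating factor gene *Csf3* (1.97, SE 0.18), and *Cxcl3*, at 5 and 0 counts in vehicle-treated WT and 21 and 23 counts in vehicle-treated *Arid1a* KO tumors. JSH-23 lowered 21 of the 29 in *Arid1a* KO tumors (median -1.05, beside 16.9% of all genes lower) and 15 in WT tumors (median -0.76, beside 10.2%), and the others were not called. In JSH-23-treated *Arid1a* KO tumors, *Cxcl3* had 0 counts in both samples, at least 7.43-fold lower than with vehicle, as the mean CPM against that of 3 counts per library, and *Nos2*, the inducible nitric oxide synthase gene, had a log2 fold change of -2.97 (SE 0.098). Several of these targets were chosen by the study, so their direction is not independent evidence, and the median shifts above stand beside member medians of -0.01, -0.18 and -0.10 in the same comparisons.

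The ligands were scarce. Of 16 ligand genes, 8 were tested, and 6 were called with JSH-23 in *Arid1a* KO tumors, 5 of them lower and *Il33* higher (log2 fold change 0.70, SE 0.083), beside 16.9% of all genes lower and 9.10% higher. *Tnf*, with 5 and 3 counts in vehicle-treated WT tumors, 14 and 19 in vehicle-treated *Arid1a* KO tumors and 3 and 0 in JSH-23-treated *Arid1a* KO tumors, and *Il1b*, with 39 and 31, 4 and 11, and 1 and 1 counts in the same groups, were called in opposite directions between the genotypes with vehicle. In JSH-23-treated WT tumors, *Il1b* had 13 and 6 counts. *Il1b*, like *Adgre1*, was lower in *Arid1a* KO against WT with vehicle, and the part of macrophages in this was not tested. Of 23 other feedback regulators tested, 2 were called higher and 3 lower with JSH-23 in *Arid1a* KO tumors, a share below the 26.0% of all genes called. *Zc3h12a*, which encodes the RNase regnase-1, was measured at 31.35 and 30.9 CPM in vehicle-treated WT tumors, 12.8 and 11.4 CPM in JSH-23-treated WT tumors, 29.6 and 29.35 CPM in vehicle-treated *Arid1a* KO tumors, and 7.08 and 7.34 CPM in JSH-23-treated *Arid1a* KO tumors. It fell 4.08-fold with JSH-23 in *Arid1a* KO tumors (log2 fold change -2.03, SE 0.098), *Nfkbid*, which encodes the nuclear IκBNS, had -2.13 (SE 0.36), and *Dok1* rose by 1.28 (SE 0.048). Of 22 other adaptors and kinases, 3 were called higher and 3 lower in that comparison, a share close to the same 26.0%, with *Map3k8*, the kinase bound by p105, at -0.9974 (SE 0.13) and *Malt1*, the paracaspase of the antigen receptor branch, at 0.78 (SE 0.087). Of 8 other receptors tested, 1 was called higher and 3 lower, beside the same shares of all genes, with *Tlr6* at -1.29 (SE 0.22).

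**Figure D5:**
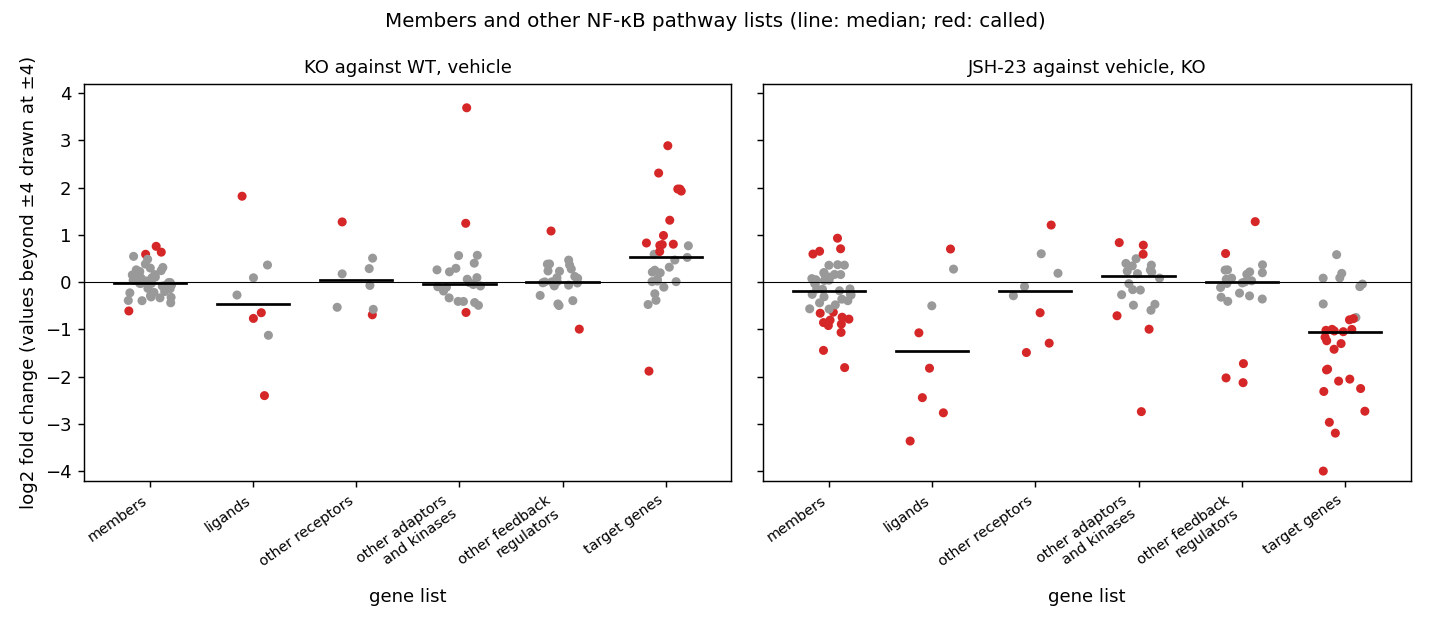
Points are single genes of the 43 members and of 5 lists of other pathway genes and targets, the y axis gives the log2 fold change in *Arid1a* KO against WT with vehicle (left) and for JSH-23 in *Arid1a* KO tumors (right), and lines are medians. Red points are called genes, and the point drawn at -4 is *Cxcl3*, whose fitted value depends on the prior count. The targets have a median of 0.52 on the left and -1.05 on the right, and the members of -0.01 and -0.18.

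Presence of a κB decamer was set beside the change with JSH-23. In *Arid1a* KO tumors, 12 tested members with a match had a median log2 fold change of -0.22, with 1 called higher and 2 lower, and 23 tested members without a match had a median of -0.03, with 2 called higher and 4 lower, beside 26.0% of all genes called and a median of -0.02. The called share of each of these sets was close to that of all genes. The 8 members without a window are in neither set. Of them, *Relb*, *Nfkb1*, *Nfkbiz*, *Sharpin* and *Tlr4* were called lower and *Tab1* higher with JSH-23 in *Arid1a* KO tumors. *Ikbkb* and *Tradd* were not called. In WT tumors the medians with and without a match were -0.03 and -0.07. Among the members with a match, *Nfkbia* rose and *Map3k7* and *Tlr3* fell with JSH-23 in *Arid1a* KO tumors.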

How the data were processed

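The 8 RNA-seq samples were placed in 4 groups of 2 by the genotype and treatment in their labels. Paired reads were aligned to GRCm38/mm10 by the authors, who counted them by gene and strand with HTSeq-count. The paper's methods name TopHat2 as the aligner and the submitters' processing notes name HISAT2, so the aligner is uncertain. The deposited counts are raw whole numbers. The deposited TPM values were made by the authors from these counts and the listed gene lengths, and keep no depth. Since only the best match of a read was kept, near-identical genes may have exchanged reads.

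The members and gene lists were chosen with earlier results of these data known. Genes passing edgeR's filterByExpr (13921 of 39089) were scaled with TMM and fitted over the 8 samples with a mean per group in edgeR 4.0.16 (R 4.3.3), with quasi-likelihood tests of 5 comparisons and Benjamini-Hochberg adjustment over all genes tested. The analysis was tested on simulated data. Values in every sample are given for *Tnfaip3*, *Nfkbia*, *Rela*, *Nfkb1*, *Nfkb2* and *Ikbkb* and for the 16 called members with the largest change, other called members by their change, and from each other list up to 4 called genes with the largest change in *Arid1a* KO against WT with vehicle and in JSH-23 against vehicle in *Arid1a* KO, of which those of surest role are named. Alternatives were DESeq2 1.42.0, limma 3.58.1 on log2(TPM + 1) and log2(TPM + 0.1), no scaling, no filter, a minimum of 10 counts per sample, only the groups compared, a biological coefficient of variation of 0.1, the adjusted p alone, a test against the 1.5-fold threshold, the replicate number as a block, and leaving out each sample in turn. Promoter windows and starts are from RefSeq (GRCm38.p6) and gene positions from the GENCODE annotation of the same build.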

Additional observations from a re-analysis of the deposited data

Results flagged for a closer look

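Members whose effect of JSH-23 differed between the genotypes by at least 1.5-fold at an adjusted p under 0.05 (edgeR's quasi-likelihood test of the interaction, over all genes tested) were *Nfkbie*, *Chuk* and *Ikbke*. For *Nfkbie*, the difference was -0.7282 on the log2 scale (SE 0.27, adjusted p = 0.0236), from a level of 3.325 and 4.47 CPM in vehicle-treated WT tumors, 4.41 and 4.32 CPM in JSH-23-treated WT tumors, 6.24 and 5.52 CPM in vehicle-treated *Arid1a* KO tumors, and 3.73 and 4.17 CPM in JSH-23-treated *Arid1a* KO tumors. The vehicle-treated *Arid1a* KO samples stood above the other 6, and the difference was not called without replicate 1 of any of the 4 groups. For *Chuk*, the difference was -0.6171 (SE 0.086, adjusted p = 9.12e-09), and for *Ikbke* it was -0.6372 (SE 0.15, adjusted p = 0.000411). Both lie just beyond the 1.5-fold threshold of 0.585 in size, and the difference of *Chuk* was smaller than 1.5-fold without replicate 1 of either vehicle group, and that of *Ikbke* without replicate 1 of WT with vehicle or replicate 1 of *Arid1a* KO with JSH-23.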

How the results depend on the processing

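Depth limited *Birc3* and *Tlr2*, at 13 counts or fewer, and with 2 samples per group the calls near 1.5-fold were the least stable. Called members in *Arid1a* KO against WT with vehicle, JSH-23 in *Arid1a* KO tumors, JSH-23 in WT tumors, *Arid1a* KO against WT with JSH-23 and the interaction numbered 4, 15, 4, 2 and 3. With the adjusted p alone they numbered 23, 35, 32, 27 and 27, by construction of the looser rule, and in edgeR's test against the 1.5-fold threshold 0, 9, 2, 0 and 0, by construction of the stricter one. DESeq2 called 3, 15, 4, 2 and 2, and at an unadjusted p under 0.05 in edgeR 26, 29 and 30 members differed where that test called none. With 1 sample left out they ranged from 2 to 4, 15 to 17, 4 to 6, 0 to 4 and 1 to 5. Without scaling they were 4 in *Arid1a* KO against WT with JSH-23 and 7 in the interaction. On log2(TPM + 1) they were 2 in *Arid1a* KO against WT with vehicle and 9 in the interaction, and on log2(TPM + 0.1) they were 7 in *Arid1a* KO against WT with JSH-23 and 11 in the interaction. With a biological coefficient of variation of 0.1 the interaction had 0. The median of the members with JSH-23 in *Arid1a* KO tumors (-0.18) became -0.30 without scaling, -0.246 without a filter, -0.39 on log2(TPM + 1) and -0.42 on log2(TPM + 0.1), and ranged from -0.23 to -0.13 with 1 sample left out. In the same settings, apart from the filter, the median in *Arid1a* KO against WT with JSH-23 (-0.11) became -0.19, -0.28 and -0.30, with a range of -0.11 to -0.07, and that of the interaction (-0.12) became -0.22, -0.30 and -0.31, with a range of -0.17 to -0.09. The median in *Arid1a* KO against WT with vehicle ranged from -0.03 to 0.03 and that with JSH-23 in WT tumors from -0.11 to -0.07. In the alternatives that keep all samples, *Arid1a* kept its direction at an adjusted p under 0.05. The test against the 1.5-fold threshold was not examined for this gene. With 1 sample left out its log2 fold change ranged from -0.63 to -0.58 with vehicle, at its smallest just under the 1.5-fold threshold of 0.585 in size. With JSH-23 it ranged from -0.71 to -0.61. A few small changes turned direction on the TPM scale, and the cause was not tested. On log2(TPM + 1) and log2(TPM + 0.1), the values with JSH-23 in *Arid1a* KO tumors were -0.075 and -0.081 for *Rel*, -0.19 and -0.19 for *Bcl3*, -0.19 and -0.20 for *Tab3*, -0.034 and -0.035 for *Tnfaip3*, -0.064 and -0.066 for *Tnip2*, -0.13 and -0.14 for *Rbck1* (and -0.010 without scaling), -0.057 and -0.058 for *Rnf31*, and -0.19 and -0.20 for *Ltbr*. Those in *Arid1a* KO against WT with JSH-23 were -0.014 and -0.015 for *Nfkbiz*, -0.17 and -0.17 for *Chuk*, -0.17 and -0.18 for *Tbk1*, -0.0072 and -0.0077 for *Tab3*, and -0.13 and -0.13 for *Tnfrsf1a*. Replicate numbers did not pair the samples, with correlations of deviations between -0.007 and 0.03, and the replicate block left all member calls as they were, with 4, 15, 4, 2 and 3 called members and 3612 called genes among all genes with JSH-23 in *Arid1a* KO tumors against 3625.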

Other observations

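The balance between the IκBα transcript and that of the p65 subunit it binds was set out per sample after the values had been seen, since a ratio of 2 genes within a sample does not depend on the scaling. *Nfkbia* over *Rela*, in TPM, was 7.81 and 7.87 in vehicle-treated WT tumors, 15.6 and 16.8 in JSH-23-treated WT tumors, 6.78 and 6.23 in vehicle-treated *Arid1a* KO tumors, and 22.5 and 23.2 in JSH-23-treated *Arid1a* KO tumors. Both JSH-23 groups lay above both vehicle groups, the *Arid1a* KO samples being the lowest with vehicle and the highest with JSH-23. *Tnfaip3* over *Rela* followed the same order of groups, at 1.06 and 1.02, 1.33 and 1.40, 0.856 and 0.811, and 1.80 and 1.74. Both ratios have *Rela* as the denominator, so their orders of groups are not independent of each other. A ratio shows that the genes changed unequally and not which of them did.

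The 5 Rel protein transcripts summed to 178 and 173.3 TPM in vehicle-treated WT tumors, 142.7 and 140.8 TPM in JSH-23-treated WT tumors, 190.4 and 198.3 TPM in vehicle-treated *Arid1a* KO tumors, and 107 and 106 TPM in JSH-23-treated *Arid1a* KO tumors. The *Arid1a* KO samples were thus the highest with vehicle and the lowest with JSH-23. *Rela*, which is part of the sum, shows the same order. So does *Map3k7*, but its log2 fold change of -0.09 in *Arid1a* KO against WT with JSH-23 did not pass the adjusted p. The sum depends on the TPM scale. On log2(TPM + 1) the median of all genes was -0.205 with JSH-23 in *Arid1a* KO tumors and -0.159 in *Arid1a* KO against WT with JSH-23.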
